A study of Mus musculus with 36 samples.

Results

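The potassium channel genes described here are the protein-coding genes of mouse whose symbol is Kcn followed by letters and a number. Symbols were matched to the tables by Ensembl identifier, and 92 of the 37315 genes listed fit the pattern, in 15 families that share a symbol prefix or a channel class. Their RNA was measured in the whole hippocampus of 36 mice. The mice came from 6 inbred strains (PWD/Ph, DBA/2J, DBA/1J, C57BL/6J, A/J, 129S1/SvImJ), each with 3 females and 3 males. Each library came from 1 animal, so the replicates are separate mice. No treatment or engineered allele is named in the labels. The age was 63 days for females and 62 days for males in DBA/1J, A/J and 129S1/SvImJ, and 64 against 63 days in C57BL/6J, so that sex and age cannot be told apart in these 4 strains. In PWD/Ph and DBA/2J females and males had the same age of 62 days. Housing was single for PWD/Ph only, so that strain and housing cannot be told apart there.

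Potassium channels let potassium leave or enter the cell and so set the resting potential, shape the action potential and limit repetitive firing. Voltage-gated pore subunits (Kcna to Kcnd, Kcnh, Kcnq) assemble as tetramers, silent subunits (Kcnf, Kcng, Kcns, Kcnv) join Kv2 tetramers without forming channels of their own, and beta subunits, KChIP and KCNE proteins ride on the pore and alter its gating. Calcium-activated channels (Kcnma, Kcnn), inward rectifiers (Kcnj) and tandem-pore leak channels (Kcnk) complete the family. In the hippocampus, A-type, M-type and SK currents in principal cells, fast Kv3 currents in interneurons and glial inward rectifiers are the best known.

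Total counts ran from 6493512 to 35232515 per library, with a median of 21144604, and the 3 shallowest were DBA/2J female replicate 3 (6493512), female replicate 2 (7422602) and male replicate 2 (7814418). Among the 36 pairs of replicates within a group, 0 held identical counts. Markers of excitatory neurons were present in every library. Camk2a, the kinase of excitatory neurons, ran from 411.5 to 1249 FPKM, and Slc17a7, the vesicular glutamate transporter, from 195.1 to 438.5 FPKM. Prox1, a dentate granule cell factor, ran from 8.38 to 16.6 FPKM. A low-count filter kept 19702 genes, among them 80 of the 92 members. The 12 members that it removed were Kcna7, Kcna10, Kcne1, Kcne3, Kcnj1, Kcnk7, Kcnk15, Kcnk16, Kcnk18, Kcnmb3, Kcnn4 and Kcnv2, and the counts of these are too few for any statement on strain or sex. Levels within a gene are given in CPM (the usual scaling of counts to the size of each library, with TMM factors), and levels between genes in FPKM as deposited, which also divide by transcript length. Summed striatal markers reached 209.2 CPM in PWD/Ph female replicate 1, against 137.9 to 158.6 CPM in the other PWD/Ph libraries. The same library had the lowest sum of excitatory neuron markers, 5006 CPM. Summed pituitary markers reached 149.8 CPM in C57BL/6J male replicate 2, against 74.4 to 89.9 CPM in the other C57BL/6J libraries.

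On the FPKM scale, averaged over 36 libraries, the highest level belonged to an auxiliary subunit. Kcnab2, a Kv1 beta subunit, averaged 175.5 ± 48.0 FPKM (SD, n = 36), with libraries between 84.5 and 266.4 FPKM. Kcnip2, a KChIP that binds Kv4 channels, averaged 51.6 ± 11.0 FPKM, and its range over the libraries lay below that of Kcnab2. Kcnab1, the other abundant beta subunit, averaged 33.4 FPKM, the astrocytic rectifier Kcnj10 32.9 FPKM and the G protein-gated rectifier Kcnj3 29.4 FPKM. The Kv3 genes Kcnc1 and Kcnc2 stood at 26.1 and 14.9 FPKM. Kcnn2 led the SK genes at 22.9 FPKM, against 2.50 FPKM for Kcnn1 and 1.99 FPKM for Kcnn3. Among Kv1 pores Kcna1 had 21.6, Kcna2 15.4 and Kcna6 14.2 FPKM. Kcnd2, the dendritic A-type Kv4 pore, had 21.5 FPKM, against 13.5 FPKM for Kcnd3 and 1.84 FPKM for Kcnd1.

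Among channels gated by calcium or sodium, Kcnma1, the BK pore, had 19.1 FPKM, with Kcnt1 and Kcnt2, the sodium-activated channels, at 8.34 and 5.10 FPKM. Among tandem-pore genes Kcnk1 had 18.6, Kcnk2 9.86 and Kcnk9 4.72 FPKM. Kcnj9, a partner of Kcnj3, had 17.6 FPKM. Kcnip4 and Kcnip3 stood at 16.9 and 16.6 FPKM. The EAG-type genes Kcnh3, Kcnh1 and Kcnh7 had 14.0, 6.33 and 5.89 FPKM, and the M-current subunits Kcnq5 and Kcnq3 12.3 and 10.2 FPKM. Kcnb2, a Kv2 pore, had 1.62 FPKM. The silent subunits Kcng1, Kcnf1 and Kcnv1 lay within 8.36 to 9.14 FPKM. Kcnmb4, the neuronal BK beta subunit, had 11.0 FPKM against 1.63 FPKM for Kcnmb2 and 0.253 FPKM for Kcnmb1. Kcnab3, the third Kv beta gene, had 7.70 FPKM. The KCNE family was the lowest as a whole, its summed level 3.68 FPKM, of which Kcne2 gave 3.17 and Kcne4 0.316 FPKM. Summed levels were 216.6 FPKM for Kv beta, 130.5 for inward rectifiers, 91.5 for KChIP and 60.9 FPKM for Kv1.

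Strain differences were tested on the counts by the quasi-likelihood F test of edgeR, adjusted over the 19702 genes by Benjamini-Hochberg, at a threshold of 0.05. Unless another source is named, every adjusted p is from this test, and every log2 fold change is of a strain over the mean of the other 5 strains with its standard error (SE). Some strain difference was called for 76 of 80 members, and 92.0% of all genes tested were called, so that the members' share lies near the background. The 4 members without a call were Kcnq1 (adjusted p = 0.376), Kcnh8 (adjusted p = 0.181), Kcnj8, a mural cell channel (adjusted p = 0.145), and Kcnk10 (adjusted p = 0.0976). Kcnq1 and Kcnh8 rest on few reads, at means of 0.351 and 0.514 CPM. Their strain means ranged 1.82-fold and 1.72-fold, so that the missing call does not show equal levels. The median member ranged 1.72-fold between its highest and lowest strain mean, and the median gene 1.76-fold. Over 2-fold were 19 members, or 23.8%, against 38.6% of the genes. The strain with the highest mean was the same in both sexes for 52 of 80 members. PWD/Ph held the highest mean of 22 members and the lowest of 27, 129S1/SvImJ the highest of 16 and the lowest of 25. For DBA/1J these counts were 17 and 5, for C57BL/6J 13 and 5, for DBA/2J 7 and 14, and for A/J 5 and 4. Neither these counts nor the 52 members above were set against all genes, so that they show no trait of the members.

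**Figure D1:**
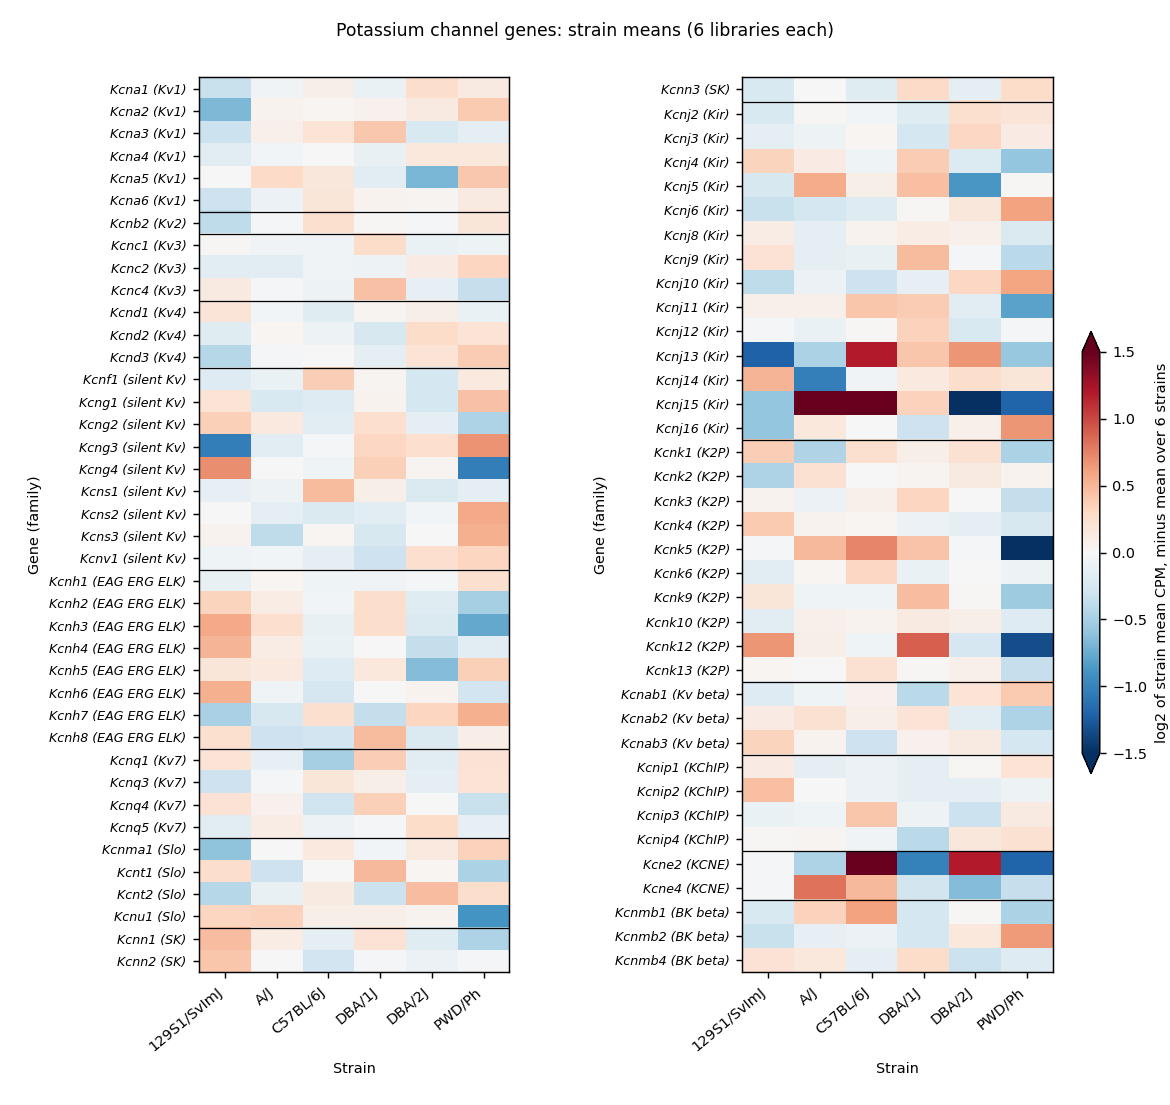
Log2 of the strain mean CPM minus the mean over the 6 strains, for 77 of the tested members (rows, by family) and the 6 strains (columns), with the colour scale ended at 1.5 in either direction. The columns of 129S1/SvImJ and PWD/Ph hold the most cells of strong colour, and Kcnj15, Kcne2 and Kcnj13 are the members with the widest ranges, 9.21-fold, 6.66-fold and 5.29-fold.

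In each strain against the other 5, the share of members called stayed near that of all genes. In 129S1/SvImJ, 27 members were higher and 28 lower, or 55 in all, with 67.4% of all genes called. A/J had 10 higher and 9 lower (33.2% of genes called), C57BL/6J 17 and 9 (34.7%), DBA/1J 25 and 14 (53.4%), DBA/2J 19 and 14 (49.5%), and PWD/Ph 32 and 28 (70.5%). Of all genes, 35.3% were higher and 32.1% lower in 129S1/SvImJ, 18.9% and 14.4% in A/J, 21.1% and 13.6% in C57BL/6J, 28.5% and 24.9% in DBA/1J, 25.1% and 24.4% in DBA/2J, and 34.4% and 36% in PWD/Ph. Changes over 1.5-fold were called for 12 members in 129S1/SvImJ (23.8% of genes), 4 in A/J (10.5%), 6 in C57BL/6J (11.4%), 2 in DBA/1J (12.1%), 5 in DBA/2J (13.7%) and 20 in PWD/Ph (29.9%). Over 2-fold they were 2 in 129S1/SvImJ (8.66%), 2 in A/J (5.46%), 3 in C57BL/6J (6.0%), 1 in DBA/1J (4.81%), 1 in DBA/2J (7.21%) and 5 in PWD/Ph (14.8%). At both fold limits the members' share was below that of all genes in every strain, such as 2.5% over 1.5-fold in DBA/1J and 6.25% over 2-fold in PWD/Ph. The median absolute log2 difference of members was 0.29 in 129S1/SvImJ and 0.41 in PWD/Ph, against 0.34 and 0.39 for all genes. The 6 contrasts share libraries and are not independent of each other.

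Base composition moved with several of these contrasts. Across the 80 members, the log2 fold change correlated with the GC content of the longest transcript at r = 0.573 in 129S1/SvImJ, 0.607 in DBA/1J and -0.5 in PWD/Ph, and at 0.025 in A/J, -0.153 in C57BL/6J and -0.307 in DBA/2J, with the members sharing the same libraries. For DBA/2J minus DBA/1J it was -0.534. Over all genes the same correlations were 0.417, 0.387 and -0.345 in 129S1/SvImJ, DBA/1J and PWD/Ph. Members ran from 36.6 to 69.4% GC, with a median of 51.8% against 49.6% for all genes tested. After each library's trend on GC content and length was removed, a correction chosen after seeing the data, the calls became 21 higher and 20 lower in 129S1/SvImJ (55.4% of genes called), 12 and 21 in DBA/1J (41.7%) and 33 and 19 in PWD/Ph (62.4%). In A/J they became 10 and 14 (35.9%), in C57BL/6J 18 and 15 (40.5%), and in DBA/2J 13 and 13 (41.5%). All 26 C57BL/6J members and 18 of 19 A/J members kept call and sign, but only 28 of 55 did in 129S1/SvImJ, 37 of 60 in PWD/Ph, 21 of 39 in DBA/1J and 20 of 33 in DBA/2J. The sign turned for 17 of the members called in 129S1/SvImJ, 15 in PWD/Ph, 6 in DBA/1J, 1 in DBA/2J and 0 in A/J and C57BL/6J. Log2 values after this correction are called GC-corrected. The deposited FPKM was a further scaling. It moved the median of all genes to 0.11 in 129S1/SvImJ, 0.118 in A/J, -0.169 in DBA/2J and -0.181 in PWD/Ph on the log2 scale, where the counts had 0.006, 0.015, -0.011 and -0.024. Its splits of higher and lower members (limma on log2(FPKM + 0.1)) were 29 and 14 in 129S1/SvImJ, 17 and 3 in A/J, 17 and 3 in C57BL/6J, 24 and 6 in DBA/1J, 4 and 31 in DBA/2J and 17 and 35 in PWD/Ph. Of all genes, 40.6% were higher and 21.6% lower on FPKM in 129S1/SvImJ, 28.5% and 6.48% in A/J, 18.1% and 9.55% in C57BL/6J, 28.0% and 15.7% in DBA/1J, 10.1% and 42.6% in DBA/2J, and 20.3% and 46.1% in PWD/Ph, so that the split of all genes moved with that scaling too.

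**Figure D2:**
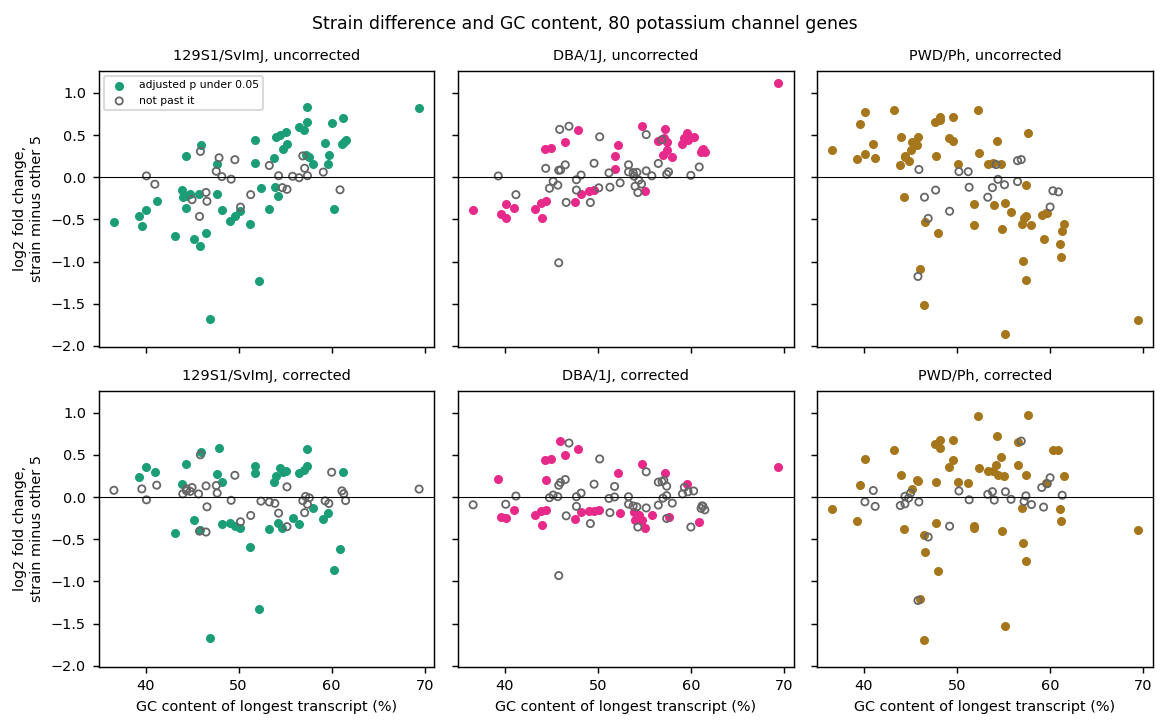
Log2 fold change of each tested member (strain over the mean of the other 5) against the GC content of its longest transcript in percent, for 129S1/SvImJ, DBA/1J and PWD/Ph, before (top) and after (bottom) the GC content and length correction. The slope is upward in 129S1/SvImJ and DBA/1J (r = 0.573 and 0.607) and downward in PWD/Ph (r = -0.5) before the correction, and r is -0.081, -0.022 and 0.128 after it.

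Kv1 pores are the low-threshold channels of axons. Of 6 members tested, 5 were lower in 129S1/SvImJ and 0 higher (4 lower after GC correction, 3 on FPKM). Of all genes, 32.1% were lower there (23.0% after GC correction, 21.6% on FPKM). In PWD/Ph 5 Kv1 members were higher and 0 lower (5 and 0 after GC correction), but on FPKM the split was 2 and 1. Of all genes, 34.4% were higher in PWD/Ph (35.9% after GC correction, 20.3% on FPKM). Kcna2 had 32.0, 43.9 and 70.2 CPM as lowest, median and highest 129S1/SvImJ library, against a highest strain median of 101.6 CPM in PWD/Ph, whose libraries ran from 78.2 to 115.4 CPM. All 6 PWD/Ph libraries lay above all 6 of 129S1/SvImJ. The strain difference on the log2 scale was -0.81 ± 0.09 in 129S1/SvImJ (SE, adjusted p = 7.17e-09, GC-corrected -0.39) and 0.48 in PWD/Ph (adjusted p = 8.91e-06, GC-corrected 0.20). Kcna1, whose loss causes seizures in mice, had 185.8, 228.1 and 241.2 CPM in 129S1/SvImJ against strain medians of 249.9 to 331.1 CPM elsewhere, with the highest 129S1/SvImJ library just inside the DBA/1J range. Its log2 fold change in 129S1/SvImJ was -0.40 (adjusted p = 2.38e-07) and barely moved with the correction, at -0.37. Kcna6 had the same log2 fold change of -0.38 in 129S1/SvImJ with and without the correction (adjusted p = 4.5e-09). Kcna5 stood apart in DBA/2J, with 0.812, 1.08 and 1.26 CPM against strain medians of 1.51 to 1.98 CPM in the others, overlapping 129S1/SvImJ and DBA/1J. Its log2 fold change was -0.84 (adjusted p = 0.000835, GC-corrected -0.70), and in males alone the strain difference was not called (adjusted p = 0.0926).

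Kv3 pores carry the fast repolarisation of fast-spiking neurons. Kcnc1 was high in DBA/1J, with 203.5, 214.1 and 227.4 CPM against 150.3, 173.7 and 192.8 CPM in the others, without overlap. The log2 difference of 0.33 ± 0.04 (adjusted p = 4.95e-08) became 0.02 after GC correction, with an adjusted p of 0.756. Non-overlapping members numbered 5 in 129S1/SvImJ (4.25% of all genes), 3 in PWD/Ph (7.56%), 2 in DBA/1J (0.665%), 1 in C57BL/6J (0.69%), 1 in A/J (0.513%) and 0 in DBA/2J (0.766%).

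The silent subunits Kcng4 and Kcng3 had the widest strain ranges among voltage-gated members, 3.34-fold and 3.27-fold. The median log2 range of the 9 silent subunits tested was 0.78, against 0.82 for all genes. Kcng3 had 1.06, 1.82 and 3.50 CPM in 129S1/SvImJ, against strain medians of 3.88 to 5.28 CPM in A/J, C57BL/6J, DBA/1J and DBA/2J and 6.70 CPM in PWD/Ph. The highest 129S1/SvImJ library reached into A/J and C57BL/6J but not into PWD/Ph. Its log2 fold change was -1.24 ± 0.13 in 129S1/SvImJ (adjusted p = 2.55e-09, GC-corrected -1.32) and 0.80 in PWD/Ph (adjusted p = 5.49e-07, GC-corrected 0.96). Kcng4 ran the other way. It had 1.60, 2.75 and 3.37 CPM in PWD/Ph and 7.51, 9.06 and 9.60 CPM in 129S1/SvImJ, against medians of 4.75 to 7.09 CPM in the other 4 strains. The log2 fold change was -1.22 in PWD/Ph (adjusted p = 1.11e-09, GC-corrected -0.76) and 0.84 in 129S1/SvImJ (adjusted p = 1.45e-08, GC-corrected 0.57). The lowest DBA/2J library, 2.99 CPM, reached into the PWD/Ph range, and the highest DBA/1J library, 7.68 CPM, into that of 129S1/SvImJ. Of 9 silent subunits tested, 5 were higher and 2 lower in PWD/Ph, 7 and 1 after GC correction, and 5 and 3 on FPKM. Of all genes, 34.4% were higher from the counts, 35.9% after GC correction and 20.3% on FPKM. Kcns2 was high in PWD/Ph, at 44.0, 51.5 and 59.0 CPM against 21.7, 30.9 and 43.2 CPM in the other 30 libraries. The groups did not overlap, and the log2 fold change was 0.68 ± 0.07 (adjusted p = 5.64e-10, GC-corrected 0.58). Kcns1 was high in C57BL/6J, at 7.79, 8.76 and 9.79 CPM against 3.92, 6.10 and 7.78 CPM, a log2 fold change of 0.58 ± 0.10 (adjusted p = 2.65e-05, GC-corrected 0.63). In that case the lowest C57BL/6J library was just above the highest of the others.

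**Figure D3:**
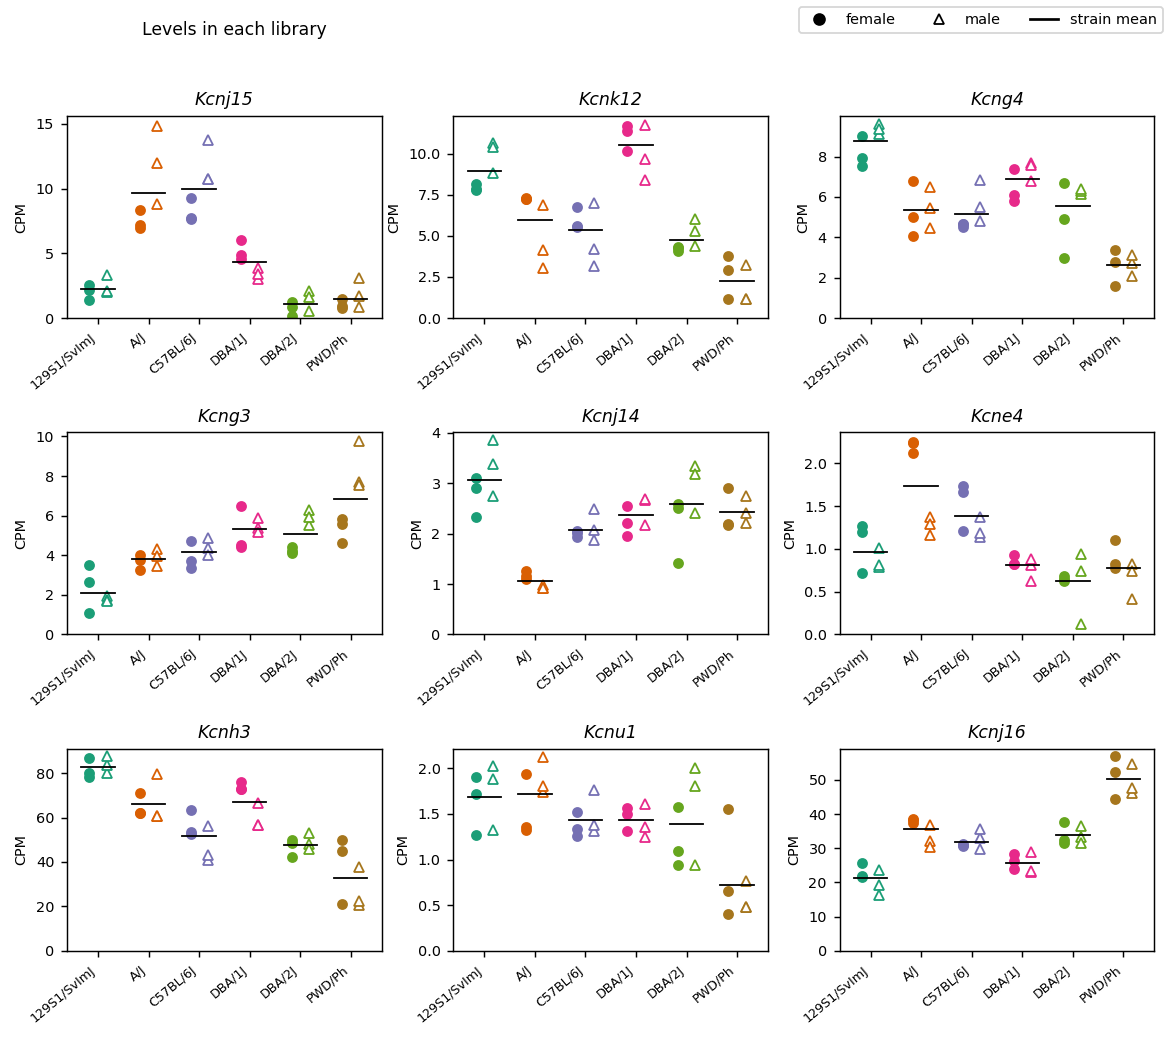
CPM per library of 9 members across the 6 strains (x axis), with filled circles for females, open triangles for males and a line at the strain mean. Kcnj15 is highest in A/J and C57BL/6J, Kcnj14 is lowest in A/J, and Kcnj16 is highest in PWD/Ph, where its libraries run from 44.5 to 57.1 CPM.

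Among EAG-type channels, Kcnh3, a forebrain ELK channel, had 20.5, 30.01 and 49.7 CPM in PWD/Ph and 78.0, 81.9 and 87.6 CPM in 129S1/SvImJ, against strain medians of 48.3 to 69.8 CPM in the other 4. PWD/Ph overlapped C57BL/6J and DBA/2J, and its 6 libraries spread 13.1 CPM (SD) about their mean. On the log2 scale the change was -0.95 in PWD/Ph (adjusted p = 1.17e-08, GC-corrected -0.29) and 0.70 in 129S1/SvImJ (adjusted p = 2.21e-07, GC-corrected 0.30). Of 8 EAG-type genes, 4 were higher and 2 lower in 129S1/SvImJ (2 and 0 after GC correction, 4 and 1 on FPKM). Of 5 Kv7 genes, which carry the M current, 1 was higher and 3 were lower in 129S1/SvImJ. After GC correction they were 0 and 0, and on FPKM 1 and 1. Of all genes, 35.3% were higher and 32.1% lower in 129S1/SvImJ from the counts. These shares were 32.4% and 23.0% after GC correction, and 40.6% and 21.6% on FPKM.

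Calcium-activated channels shape the afterhyperpolarisation. Kcnn2, the SK channel of principal cells, had 64.4, 73.9 and 76.4 CPM in 129S1/SvImJ against 38.9, 52.1 and 62.1 CPM in the other 30 libraries. Kcnn1 had 16.2, 16.9 and 19.4 CPM in 129S1/SvImJ against 6.42, 11.7 and 15.5 CPM. Neither gene overlapped between the strain and the others. The log2 fold changes were 0.50 ± 0.05 for Kcnn2 (adjusted p = 5.84e-10, GC-corrected 0.34) and 0.56 ± 0.06 for Kcnn1 (adjusted p = 1.18e-09, GC-corrected 0.32). Of the 3 SK genes, 2 were higher and 0 lower in 129S1/SvImJ, also after GC correction and on FPKM. Of all genes, 35.3% were higher there from the counts, 32.4% after GC correction and 40.6% on FPKM. Kcnma1, the BK pore, was lower in the same strain, with 42.3, 58.4 and 81.4 CPM against 82.0, 97.7 and 129.3 CPM. The highest 129S1/SvImJ library lay just under the lowest of the others, and the log2 fold change was -0.73 ± 0.07 (adjusted p = 4.6e-10, GC-corrected -0.27). Kcnu1, a pH-gated relative known from sperm, had 0.4, 0.571 and 1.55 CPM in PWD/Ph against strain medians of 1.34 to 1.799 CPM. The ranges met only through 1 library, PWD/Ph female replicate 3. Its log2 fold change was -1.08 (adjusted p = 7.66e-06, GC-corrected -1.20), and in females alone the strain difference was not called (adjusted p = 0.206). Kcnmb1, the BK beta subunit of smooth muscle, had 1.35, 1.97 and 2.64 CPM in C57BL/6J against strain medians of 0.951 to 1.79 CPM, a log2 fold change of 0.70 (adjusted p = 0.000167, GC-corrected 0.63).

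Inward rectifiers held the member with the widest strain range. Of 14 tested, 3 were higher and 7 lower in 129S1/SvImJ (2 and 5 after GC correction, 4 and 4 on FPKM). In PWD/Ph 5 were higher and 4 lower (5 and 2 after GC correction, 3 and 5 on FPKM). Among all genes, 35.3% were higher and 32.1% lower in 129S1/SvImJ (32.4% and 23.0% after GC correction, 40.6% and 21.6% on FPKM). For PWD/Ph these shares were 34.4% and 36% (35.9% and 26.5% after GC correction, 20.3% and 46.1% on FPKM). Whether the family departs from these shares was not tested. Kcnj15, a rectifier known from kidney and other epithelia, had 6.97, 8.59 and 14.9 CPM as lowest, median and highest library in A/J and 7.65, 10.0 and 13.8 CPM in C57BL/6J. DBA/1J had 3.03, 4.22 and 6.07 CPM, 129S1/SvImJ 1.42, 2.13 and 3.35 CPM, PWD/Ph 0.801, 1.21 and 3.12 CPM, and DBA/2J 0.157, 1.05 and 2.09 CPM. Every A/J and C57BL/6J library lay above every library of the other 4 strains, while 129S1/SvImJ, PWD/Ph and DBA/2J overlapped. The strain difference on the log2 scale was 1.82 ± 0.15 in A/J (adjusted p = 2.75e-11), 1.89 ± 0.15 in C57BL/6J (adjusted p = 1.46e-11), -1.94 ± 0.25 in DBA/2J (adjusted p = 2.79e-07) and -1.52 ± 0.23 in PWD/Ph (adjusted p = 7.63e-07). GC correction left these at 1.84, 1.83, -2.05 and -1.70. The gene lies on chromosome 16, plus strand, from 95257558 to 95300260 in GRCm38. Its promoter window is printed because its strain range was the widest of the members, with the bases TTTATA, the reverse complement of the TATA box letters TATAAA, in capitals 9 bases past the start.
Kcnj15 promoter (GRCm38.p6, RefSeq, chr16:95257308-95257607, plus strand): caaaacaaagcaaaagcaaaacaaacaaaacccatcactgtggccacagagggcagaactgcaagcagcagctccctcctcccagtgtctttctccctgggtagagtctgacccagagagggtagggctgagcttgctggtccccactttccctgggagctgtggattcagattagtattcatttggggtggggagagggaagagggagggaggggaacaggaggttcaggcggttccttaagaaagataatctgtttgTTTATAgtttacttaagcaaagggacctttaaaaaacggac

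Kcnj14 was low in A/J, at 0.912, 1.04 and 1.25 CPM against 1.42, 2.45 and 3.85 CPM in the other 30 libraries. The 6 A/J libraries lay below all others, and the log2 fold change was -1.24 ± 0.12 (adjusted p = 3.58e-10, GC-corrected -1.31). Kcnj11, the pore of the ATP-sensitive channel, had 2.16, 3.80 and 5.71 CPM in PWD/Ph against strain medians of 5.85 to 9.33 CPM, with overlap only with DBA/2J. Its change in log2 units was -0.99 (adjusted p = 1.5e-07, GC-corrected -0.55). Abcc8, the sulfonylurea receptor that assembles with it, was also lower in PWD/Ph, with a log2 fold change of -0.79 (adjusted p = 2.47e-08, GC-corrected -0.38). Abcc9, the other sulfonylurea receptor, was not the lowest there, at 11.3 CPM in PWD/Ph against 6.35 to 11.6 CPM in the other strains. Both receptors were chosen after their values were seen.

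Glial rectifiers were highest in PWD/Ph. Kcnj10, the main potassium-buffering channel of astrocytes, had 311.5, 391.0 and 413.1 CPM in PWD/Ph and 283.3, 307.0 and 323.1 CPM in DBA/2J, against strain medians of 191.7 to 229.4 CPM in the other 4. All libraries of PWD/Ph and DBA/2J lay above those of the other strains. The log2 fold change was 0.71 ± 0.06 in PWD/Ph (adjusted p = 1.39e-12, GC-corrected 0.67), 0.37 in DBA/2J (adjusted p = 4e-06, GC-corrected 0.34) and -0.46 in 129S1/SvImJ (adjusted p = 1.14e-07, GC-corrected -0.34). Kcnj16, which joins Kcnj10 in mixed channels, had 44.5, 49.96 and 57.1 CPM in PWD/Ph against 16.3, 30.8 and 38.6 CPM in the other 30 libraries. The 2 sets did not overlap, and the log2 fold change was 0.79 ± 0.06 (adjusted p = 6.6e-13, GC-corrected 0.56). In 129S1/SvImJ it was -0.70 (adjusted p = 1.77e-10, GC-corrected -0.43).

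The summed level of 7 astrocyte markers, none at 0, was also at its highest in PWD/Ph and its lowest in 129S1/SvImJ by strain median. It ran from 6272 to 7735 CPM in PWD/Ph and from 3684 to 4968 CPM in 129S1/SvImJ, with medians of 5178 to 6360 CPM in the other 4 strains. Slc1a2 weighed most in this sum, with a median of 4247 CPM against 30.3 to 537.1 CPM for the other markers. No relation to single markers was tested. Across the 36 libraries the log2 CPM of Kcnj16 correlated with this sum at r = 0.841 (rho = 0.802) and that of Kcnj10 at r = 0.711 (rho = 0.68), and the permutation p was 1e-05 for each r, the smallest that 100000 permutations can give (adjusted over 9 relations 2.2e-05). Without the 2 libraries farthest from the median of the sum, r was 0.796 and 0.643. After each strain's mean was taken out, r was 0.524 for Kcnj16 and 0.645 for Kcnj10. Within single strains of 6 libraries it ran from -0.078 to 0.818 and from 0.14 to 0.906. The permutation p refers to r over all 36 libraries, which includes the differences between strain means, and not to r within strains. For Kcnk2 and Kcnk1, tandem-pore members known from astrocytes, r with the same sum was 0.54 and -0.427 (permutation p = 0.00069 and 0.0095, adjusted 0.0012 and 0.014), and rho was 0.288 and -0.381 (permutation p = 0.089 and 0.022, adjusted 0.11 and 0.033). Without the 2 farthest libraries r was 0.381 and -0.365, and with strain means taken out it was -0.051 and -0.059, so that neither held within strains. Kcnj8 and Kcnmb1, set against mural cell markers, had r of -0.142 and -0.101 (permutation p = 0.41 and 0.56, adjusted 0.46 and 0.56) and rho of -0.149 and -0.093 (permutation p = 0.38 and 0.59, adjusted 0.43 and 0.59), and r of 0.258 and 0.105 with strain means taken out. The part of astrocyte content in the strain differences was not tested, and in bulk tissue a change in the number of cells of a type and a change in RNA per cell cannot be told apart.

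Tandem-pore leak channels set the resting potential. In PWD/Ph, 7 of 10 tested were lower and 0 higher from the counts, with 36% of all genes lower. On FPKM 9 were lower and 0 higher (46.1% of genes lower), and after GC correction 5 were lower and 1 higher (26.5%). In C57BL/6J, 4 were higher and 0 lower with and without that correction (21.1% of genes higher from the counts, 16.9% after it). Kcnk12, a tandem-pore subunit that is silent on its own in expression systems, had 1.14, 2.04 and 3.80 CPM in PWD/Ph, 8.36, 10.8 and 11.7 CPM in DBA/1J and 7.80, 8.48 and 10.7 CPM in 129S1/SvImJ, against strain medians of 4.34 to 7.07 CPM in the other 3. Its transcript has the highest GC content of the members, 69.4%. The fitted log2 fold change was -1.70 ± 0.20 in PWD/Ph (adjusted p = 5.9e-09), 1.12 ± 0.14 in DBA/1J (adjusted p = 1.39e-07) and 0.83 in 129S1/SvImJ (adjusted p = 7.67e-06). GC correction left -0.39 (adjusted p = 0.00568), 0.35 (adjusted p = 0.00147) and 0.10 (adjusted p = 0.369).

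Kcnk1, a weakly conducting member found in neurons and astrocytes, had 36.9, 41.5 and 46.4 CPM in A/J and 36.4, 41.0 and 44.8 CPM in PWD/Ph, against strain medians of 60.5 to 72.8 CPM in the other 4. All A/J and PWD/Ph libraries lay below all others. On the log2 scale the change was -0.55 ± 0.04 in A/J (adjusted p = 1.05e-11, GC-corrected -0.58) and -0.57 ± 0.04 in PWD/Ph (adjusted p = 1.53e-12, GC-corrected -0.37). Kcnk2, a mechanosensitive channel, was low in 129S1/SvImJ, at 30.6, 32.2 and 34.8 CPM against 39.3, 46.3 and 60.2 CPM in the other 30 libraries. The groups did not overlap, and the log2 fold change was -0.55 ± 0.05 (adjusted p = 2.1e-10, GC-corrected -0.59). Kcnk9, an acid-sensitive channel, was lower in PWD/Ph at a log2 fold change of -0.66 (adjusted p = 0.000227, GC-corrected -0.88). Kcnk3, its close relative, was at -0.45 (adjusted p = 2.04e-06), but at 0.11 after GC correction (adjusted p = 0.127). Kcnk13, a microglial leak channel, was at -0.41 in PWD/Ph (adjusted p = 0.000116) and at -0.03 after correction (adjusted p = 0.813). The 6 microglial markers summed to 191.7 to 199.2 CPM in PWD/Ph, against 263.5 to 330.5 CPM in A/J. Across the 36 libraries the log2 CPM of Kcnk13 correlated with this sum at r = 0.41 (permutation p = 0.013, adjusted over 9 relations 0.017) and rho = 0.533 (permutation p = 0.0011, adjusted 0.002). With the 2 libraries farthest from the median left out, r was 0.441. With strain means taken out it was 0.003, and within single strains of 6 libraries it ran from -0.417 to 0.766, so that the relation over all libraries did not hold within strains.

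Among auxiliary subunits, the Kv4 partner Kcnip2 was high in 129S1/SvImJ, at 175.5, 182.6 and 201.5 CPM against 109.5, 125.0 and 147.2 CPM in the other 30 libraries. The sets did not overlap, and the log2 fold change was 0.54 ± 0.05 (adjusted p = 3.92e-11, GC-corrected 0.31). Kcnip4 was low in DBA/1J, at 32.5, 34.8 and 38.9 CPM against 39.2, 49.7 and 66.4 CPM, a log2 fold change of -0.48 ± 0.06 (adjusted p = 3.75e-08, GC-corrected -0.25). Its highest DBA/1J library lay just under the lowest of the others, and the gene shares exonic bases with 2 genes on the opposite strand. In PWD/Ph, 3 of 4 KChIP genes were higher and 0 lower with and without GC correction (34.4% and 35.9% of all genes higher), and 1 and 0 on FPKM (20.3%). Kcne4, a KCNE subunit at low levels, had 1.17, 1.75 and 2.26 CPM in A/J against strain medians of 0.668 to 1.30 CPM, overlapping C57BL/6J and 129S1/SvImJ. In males alone its strain difference was not called (adjusted p = 0.0571). The log2 fold change was 0.94 in A/J (adjusted p = 8.05e-06, GC-corrected 0.93) and -0.81 in DBA/2J (adjusted p = 0.00215, GC-corrected -0.77). Kcnab2, the most abundant member, was lower in PWD/Ph at a log2 fold change of -0.56 (adjusted p = 2.21e-08), and its value after GC correction was -0.09 (adjusted p = 0.143).

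Kcnj13 and Kcne2 are known from the choroid plexus, the epithelium that makes cerebrospinal fluid and borders the hippocampus. Kcnj13 had 3.79, 22.4 and 30.1 CPM in C57BL/6J and 0.761, 2.20 and 9.34 CPM in 129S1/SvImJ, against strain medians of 4.77 to 13.6 CPM in the other 4. Kcne2 had 3.59, 17.6 and 24.3 CPM in C57BL/6J, against strain medians of 2.12 to 11.6 CPM. Libraries of 1 strain spread widely, from 1.07 to 32.0 CPM for Kcnj13 and from 0.669 to 31.2 CPM for Kcne2 in DBA/2J, and all strains overlapped. The log2 fold change in C57BL/6J was 1.52 ± 0.42 for Kcnj13 (adjusted p = 0.00509, GC-corrected 1.40) and 2.00 ± 0.47 for Kcne2 (adjusted p = 0.00127, GC-corrected 1.89). For Kcnj13 it was -1.68 in 129S1/SvImJ (adjusted p = 0.00921, GC-corrected -1.67). In males alone, the strain difference was not called for Kcnj13 (adjusted p = 0.383) or Kcne2 (adjusted p = 0.159).

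Within each strain, both genes followed the choroid plexus markers library by library. The 10 markers were all tested, none was at 0 throughout, and their summed level ran from 378.7 to 2652 CPM in C57BL/6J, 51.7 to 2396 in 129S1/SvImJ, 50.2 to 2032 in A/J, 474.3 to 2240 in DBA/1J, 93.8 to 3666 in DBA/2J and 47.1 to 990.2 CPM in PWD/Ph. Ttr weighed most in this sum, with a median of 743.1 CPM against 5.72 to 45.3 CPM for the other markers. Across the 36 libraries log2 CPM correlated with log2 of this sum at r = 0.966 (rho = 0.93) for Kcnj13 and r = 0.931 (rho = 0.914) for Kcne2, each with a permutation p of 1e-05, the smallest that 100000 permutations give (adjusted over 9 relations 2.2e-05). Without the 2 libraries farthest from the median, r was 0.965 and 0.923. With strain means taken out it was 0.973 and 0.99, and within single strains of 6 libraries it ran from 0.967 to 0.989 and from 0.983 to 0.998. The level of Kcne2 at a similar marker sum differed between strains. The median sum was 1492 CPM in DBA/1J and 1707 CPM in C57BL/6J. Kcne2 averaged 3.05 CPM in females and 2.63 CPM in males of DBA/1J, against 20.3 and 12.9 CPM in C57BL/6J. The part of choroid content in the strain values of these 2 genes was not tested.

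**Figure D4:**
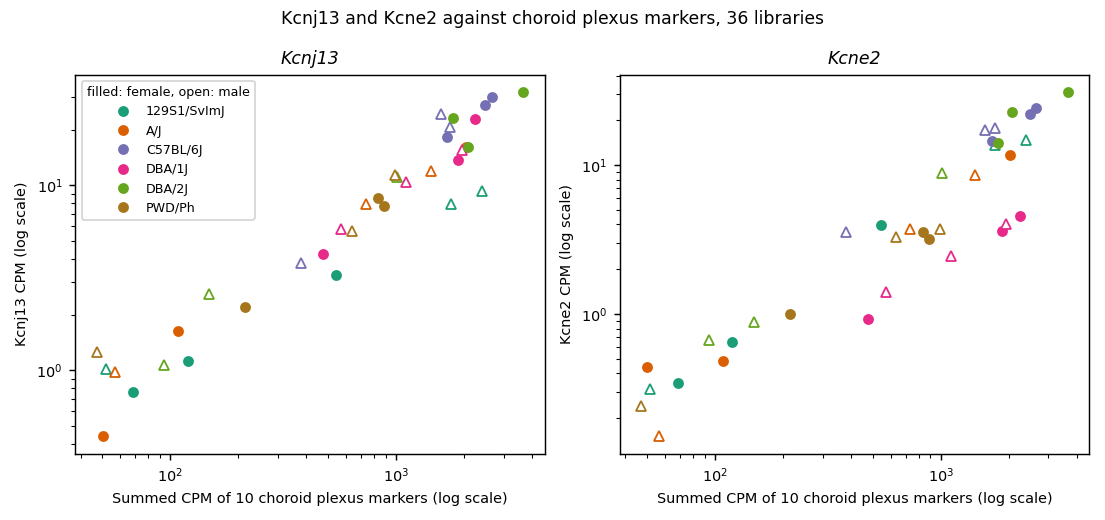
CPM of Kcnj13 and Kcne2 in each of the 36 libraries (y axis, log scale) against the summed CPM of 10 choroid plexus markers (x axis, log scale), coloured by strain. The points follow a line in every strain, with r = 0.966 for Kcnj13 and 0.931 for Kcne2 over all libraries.

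The promoter windows of both genes, 250 bases before to 50 after each RefSeq start, are printed because the levels of the pair followed the same markers. Capitals mark a TATA box match, TATAAA, read on both strands, which 5 of 92 windows of 67 matched members hold (5.43%), against 13.6% of all 32851 windows. The core of the OTX factor motif, TAATCC, on both strands, is in 0 of the windows printed here, in 2 of the 92 member windows (2.17%) and in 7.06% of all windows.
Kcnj13 promoter (GRCm38.p6, RefSeq, chr1:87394680-87394979, minus strand): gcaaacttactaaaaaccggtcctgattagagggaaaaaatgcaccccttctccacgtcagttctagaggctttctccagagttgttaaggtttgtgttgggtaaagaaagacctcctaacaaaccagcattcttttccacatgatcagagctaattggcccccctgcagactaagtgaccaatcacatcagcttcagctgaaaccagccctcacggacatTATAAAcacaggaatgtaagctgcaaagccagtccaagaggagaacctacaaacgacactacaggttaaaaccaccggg
Kcne2 promoter, first start (GRCm38.p6, RefSeq, chr16:92292139-92292438, plus strand): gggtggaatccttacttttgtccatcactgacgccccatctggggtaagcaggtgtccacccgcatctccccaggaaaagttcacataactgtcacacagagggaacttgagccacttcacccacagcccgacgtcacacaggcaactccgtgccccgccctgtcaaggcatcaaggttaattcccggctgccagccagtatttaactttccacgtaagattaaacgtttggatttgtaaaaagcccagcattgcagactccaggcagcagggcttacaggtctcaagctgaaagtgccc
Kcne2 promoter, second start (GRCm38.p6, RefSeq, chr16:92295366-92295665, plus strand): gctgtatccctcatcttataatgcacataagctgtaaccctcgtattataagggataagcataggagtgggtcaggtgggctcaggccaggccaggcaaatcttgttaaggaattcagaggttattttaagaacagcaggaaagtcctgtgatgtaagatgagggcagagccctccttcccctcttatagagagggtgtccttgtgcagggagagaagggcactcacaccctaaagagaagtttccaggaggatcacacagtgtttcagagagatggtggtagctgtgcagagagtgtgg
The Kcnj13 match lies at position -29 from the start, and neither Kcne2 window holds the letters. Kcnj13 shares 623 exonic bases with Gigyf2 on the opposite strand, so that reads of the pair could be assigned to either, since no source used here gives the strand setting of the counting.

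DBA/2J and DBA/1J, related strains from a common stock, were compared directly. From the counts, 17 members were higher and 28 lower in DBA/2J, or 45 in all, with 54.9% of all genes called (25.4% higher and 29.5% lower). Over 1.5-fold were 11 members (19.1% of genes) and over 2-fold 3 (7.55%). The libraries of the 2 strains did not overlap for 25 members, against 30.2% of all genes. The split was 17 higher and 9 lower after GC correction (36.9% of genes called), with 10 of the 45 called members turned in sign. On FPKM it was 8 and 35 (10.8% of genes higher and 40.8% lower), where the median of all genes was at -0.209 on the log2 scale. Kcnj15 had 0.157, 1.05 and 2.09 CPM in DBA/2J, against 3.03, 4.22 and 6.07 CPM in DBA/1J. Its log2 fold change of -1.96 ± 0.29 (adjusted p = 1.48e-06) was the largest among the 12 members named for this pair, and was -2.12 after GC correction and -1.38 on FPKM.

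Kcnmb4, the neuronal BK beta subunit, had 26.9, 27.8 and 30.7 CPM in DBA/2J against 36.2, 42.9 and 46.2 CPM in DBA/1J, a log2 fold change of -0.60 ± 0.10 (adjusted p = 1.08e-05, GC-corrected -0.67, on FPKM -0.43). It shares exonic bases with 2 antisense genes. Kcnip4 had 48.4, 50.8 and 61.8 CPM in DBA/2J against 32.5, 34.8 and 38.9 CPM in DBA/1J, a log2 fold change of 0.57 ± 0.07 (adjusted p = 1.46e-07, GC-corrected 0.27, on FPKM 0.41). Kcnd2, the Kv4 pore that KChIPs bind, had 172.9, 178.6 and 213.6 CPM in DBA/2J against 112.5, 129.7 and 148.5 CPM in DBA/1J. Its log2 fold change was 0.51 ± 0.07 (adjusted p = 1.31e-06, GC-corrected 0.27, on FPKM 0.30). Neither gene overlapped between the strains, and nor did the other 10 members named for this pair. All were picked by the smallest p of the same comparison, so that the lack of overlap adds no support. Kcnj3, a G protein-gated rectifier, averaged 223.5 CPM in DBA/2J and 150.1 CPM in DBA/1J, a log2 fold change of 0.57 ± 0.07 (adjusted p = 2.39e-07, GC-corrected 0.31, on FPKM 0.21). Kcnj9, which assembles with it, averaged 77.9 CPM in DBA/2J and 110.5 CPM in DBA/1J, the opposite direction, with a log2 fold change of -0.51 ± 0.07 (adjusted p = 1.15e-06). After GC correction that of Kcnj9 was -0.15 (adjusted p = 0.0652), and on FPKM -0.71.

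Kcnab1 averaged 134.5 ± 10.1 CPM in DBA/2J and 88.6 ± 4.61 CPM in DBA/1J (SD, n = 6 each). Its change in log2 units was 0.60 ± 0.07 (adjusted p = 2.26e-08), 0.36 after GC correction and -0.01 on FPKM (adjusted p = 0.973 by limma), so that the call was absent on the deposited FPKM. Kcnt2, a sodium-activated channel, averaged 37.2 CPM in DBA/2J and 21.6 CPM in DBA/1J, a log2 fold change of 0.79 ± 0.10 (adjusted p = 1.46e-07, GC-corrected 0.27), and 0.19 on FPKM (adjusted p = 0.188 by limma). Kcnh7, an ERG channel that shares 696 exonic bases with Gca, averaged 122.3 and 76.1 CPM in DBA/2J and DBA/1J, with a log2 fold change of 0.68 ± 0.09 (adjusted p = 6.4e-07, GC-corrected 0.20, on FPKM 0.46). Lower in DBA/2J from the counts were Kcnc1 at -0.38, Kcnc4 at -0.56 and Kcnk12 at -1.17 on the log2 scale (adjusted p = 5.92e-07, 1.92e-06 and 2.51e-05), and after GC correction these were -0.07, -0.10 and -0.24 (adjusted p = 0.28, 0.246 and 0.136). On FPKM they were -0.65 for Kcnc1, -0.75 for Kcnc4 and -1.36 for Kcnk12 (adjusted p = 3.25e-08, 2.76e-06 and 4.17e-05 by limma).

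Sex was tested as female minus male averaged over the 6 strains, within each strain and as an interaction. The averaged effect called 1 of 80 members, with 0.239% of all genes called. At an unadjusted p under 0.05 were 9 members, against 14.4% of genes. That member was Kcnv1, a silent subunit that joins Kv2 channels. In 129S1/SvImJ its female libraries had 53.4, 58.8 and 62.8 CPM and its male libraries 48.3, 30.4 and 48.9 CPM, in A/J 58.1, 59.7 and 54.2 against 44.2, 42.3 and 48.5 CPM, and in C57BL/6J 55.1, 54.5 and 48.1 against 44.9, 39.5 and 42.3 CPM. In DBA/1J females had 38.0, 41.4 and 43.9 CPM and males 45.8, 41.1 and 43.8 CPM, in DBA/2J 70.1, 64.6 and 68.5 against 47.0, 62.1 and 62.3 CPM, and in PWD/Ph 75.3, 72.0 and 56.0 against 66.5, 60.8 and 63.3 CPM. Female libraries were thus the higher ones in most strains but not in DBA/1J. Female against male means were 58.4 ± 4.71 against 42.5 ± 10.5 CPM in 129S1/SvImJ, 57.3 ± 2.84 against 45.0 ± 3.18 in A/J and 52.6 ± 3.86 against 42.3 ± 2.69 CPM in C57BL/6J. In DBA/2J they were 67.7 ± 2.83 against 57.1 ± 8.76 CPM, in PWD/Ph 67.7 ± 10.3 against 63.5 ± 2.85 CPM, and in DBA/1J 41.1 ± 2.97 against 43.6 ± 2.34 CPM (SD, n = 3 each). Female means were above male means in 5 of 6 strains, and the libraries did not overlap in 129S1/SvImJ, A/J, C57BL/6J and DBA/2J. In log2 units the fold change was 0.23 ± 0.05, or 1.17-fold (edgeR adjusted p = 0.0445, GC-corrected 0.22 with an adjusted p of 0.00914). The call is at the edge of the threshold: the adjusted p was 0.0505 with DESeq2's size factors, 0.0948 without the 3 shallow DBA/2J libraries, and ended in 25 of 36 fits that left out 1 library, where it ran from 0.0168 to 0.0941 with log2 fold changes of 0.20 to 0.25.

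**Figure D5:**
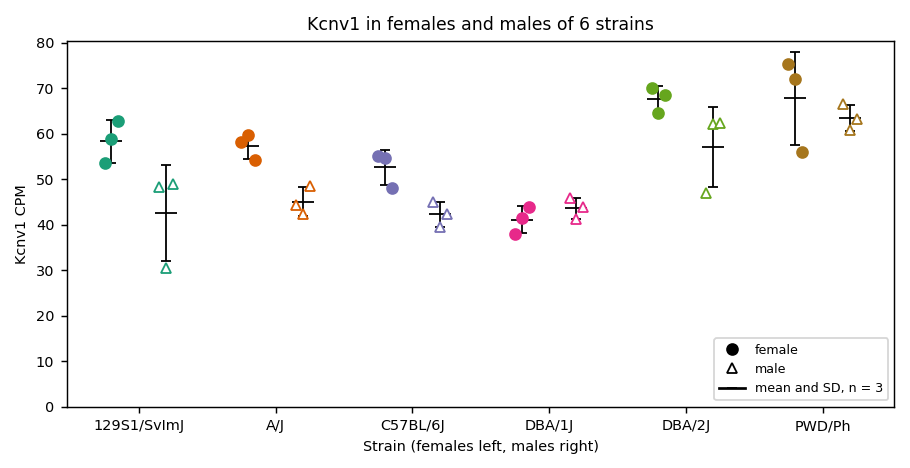
CPM of Kcnv1 per library, females left and males right in each of the 6 strains, with the mean and SD (n = 3). Female means lie above male means in every strain except DBA/1J, where they are 41.1 against 43.6 CPM.

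Within single strains edgeR called 0 members in every strain, with 0.102% of all genes called in 129S1/SvImJ, 5.32% in A/J, 0.279% in C57BL/6J, 0.0609% in DBA/1J, 0.0508% in DBA/2J and 0.122% in PWD/Ph. At an unadjusted p under 0.05 the members numbered 16 of 80 in 129S1/SvImJ (13.2% of genes), 7 in A/J (20.7%), 11 in C57BL/6J (12.4%), 4 in DBA/1J (5.43%), 4 in DBA/2J (7.82%) and 18 in PWD/Ph (15.6%). DESeq2's own test called 1 member in PWD/Ph (1.59% of genes). The interaction of sex and strain called 0 members (1.64% of genes), 17 at an unadjusted p under 0.05 (21.1%), and 4 with DESeq2's test (7.14%). The members with the smallest p are given as values. In 129S1/SvImJ Kcnt2 had 19.9, 25.7 and 25.7 CPM in females and 17.8, 12.2 and 19.7 CPM in males, a log2 difference of 0.52 ± 0.14 (edgeR adjusted p = 0.195). In A/J Kcne4 had 2.23, 2.13 and 2.26 CPM in females and 1.37, 1.17 and 1.29 CPM in males, 0.79 ± 0.26 (edgeR adjusted p = 0.0706), and its GC-corrected adjusted p was 0.0397. In C57BL/6J Kcnip4 had 52.7, 50.2 and 46.2 CPM in females and 41.6, 39.2 and 40.3 CPM in males, 0.30 ± 0.10 (edgeR adjusted p = 0.199). Females lay above males without overlap in these 3 cases. The genes were picked by the smallest p of the same tests, so that the lack of overlap adds no support.

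In DBA/1J Kcng2, a silent subunit, had 21.8, 25.8 and 23.5 CPM in females and 19.4, 19.5 and 18.2 CPM in males, 0.31 ± 0.14 (edgeR adjusted p = 0.896). In DBA/2J Kcne2 had 31.2, 22.8 and 14.2 CPM in females and 0.881, 0.669 and 8.93 CPM in males, 2.64 ± 1.05 (edgeR adjusted p = 0.434). The choroid marker sum in the same libraries was 3666, 2078 and 1792 CPM in females and 148.7, 93.8 and 1013 CPM in males, and its part in this difference was not tested. In PWD/Ph Kcnt1 had 31.9, 15.4 and 22.3 CPM in females and 12.8, 14.1 and 16.1 CPM in males, 0.67 ± 0.18 (edgeR adjusted p = 0.111), with 1 female library inside the male range. The 31.9 CPM was that of female replicate 1, whose striatal marker sum was the highest, 209.2 CPM. The part of tissue content in this difference was not tested. The smallest interaction p was that of Kcnk3, an acid-sensitive leak channel (edgeR adjusted p = 0.0862). It had 13.3, 9.84 and 12.4 CPM in PWD/Ph females and 8.16, 9.55 and 9.12 CPM in PWD/Ph males, and 12.8, 11.4 and 13.1 CPM in 129S1/SvImJ females and 14.2, 16.6 and 15.1 CPM in 129S1/SvImJ males.

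Partners of these channels outside the symbol rule were taken from a list of 27 genes, of which 26 were tested. A strain difference was called for 22 of them, where 92.0% of all genes were called. There were 17 in 129S1/SvImJ (5 higher, 12 lower, with 67.4% of all genes called), 22 in PWD/Ph (11 and 11, 70.5%), 15 in DBA/2J over DBA/1J (8 and 7, 54.9%) and 0 for sex averaged over strains (0.239%). The genes named here were chosen after their values were seen. Gnb5, a G protein beta subunit of the complexes that speed the closing of G protein-gated rectifiers, averaged 49.5 CPM in 129S1/SvImJ against 24.2 to 40.3 CPM in the other strains, a log2 fold change of 0.68 ± 0.07 (adjusted p = 3.91e-10, GC-corrected 0.54). Abcc9, the vascular sulfonylurea receptor, was at -0.67 in 129S1/SvImJ (adjusted p = 1.69e-08, GC-corrected -0.34). Amigo1, a Kv2 partner, was at 0.25 in PWD/Ph (adjusted p = 4.4e-08, GC-corrected 0.35), and Dlg4, a scaffold of Kv1 channels, at -0.41 (adjusted p = 6.7e-07, GC-corrected -0.58). Hcn2, a related cation channel, turned with the correction in PWD/Ph, from the counts at -0.67 (adjusted p = 9.44e-09) and after it at 0.33 (adjusted p = 1.52e-06).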

How the data were processed

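RNA from the whole hippocampus of 36 mice was sequenced, 3 libraries in each of 12 groups of strain and sex. The authors deposited 1 table per strain with raw counts per Ensembl gene and FPKM, per the file headers. GRCm38 (mm10) is the only build in the submitters' processing notes, and the effect of strain variants on alignment to it was not tested. The same notes name TopHat2 2.0.13, Cufflinks 2.1.1, SAMtools, Trimmomatic 0.32 and DESeq2 1.8.1. No source used here gives the read counter, its strand setting or the annotation release, so that members with overlapping or antisense exons are uncertain (among them Kcnab2, Kcnab3, Kcnd3, Kcnh3, Kcnh7, Kcnip4, Kcnj13, Kcnk3, Kcnk4, Kcnmb4 and Kcnn1). The assignment of libraries to lanes is not given in the labels, and the spike-in mix differed by sex. Symbols were found for 35449 genes, coordinates are those of GENCODE M21, and promoter sequences those of RefSeq GRCm38.p6.

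The counts were scaled by TMM, filtered with filterByExpr (minimum count 10, minimum total 15) and tested with edgeR 4.0.16's quasi-likelihood F test in R 4.3.3 with 12 group means, 24 residual degrees of freedom and Benjamini-Hochberg adjustment over 19702 genes. The common dispersion was 0.0132, a coefficient of variation of 11.5% between replicates. SE was taken as the size of the log2 fold change over the root of F. Replicate pairs differed by more than sampling noise, with a mean chi-square per gene of 2.13 to 38.0. The depth of 6493512 to 35232515 counts sets the precision, and counting error alone is not the spread between mice. The test was tried on simulated counts with known changes. Alternatives were DESeq2 1.42.0 (its size factors and its test), limma 3.58.1 on log2 of deposited FPKM plus 0.1 or 1, no filter, and at least 1 CPM in 3 libraries. Others were a replicate block, each strain's own libraries, and each sex alone. Further fits left out PWD/Ph (the only strain left out), each library in turn, or the 3 shallowest DBA/2J libraries. A few members are not reported here. A loess correction (span 0.5) for GC content and length of the longest transcript was chosen after seeing the data. Marker relations used log2(CPM + 0.1) with scipy 1.17.1.

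The members, gene lists and tests were chosen with earlier results of these data known. Named were the 15 members with the widest strain range, up to 4 per strain and direction whose libraries did not overlap, up to 6 per direction for DBA/2J minus DBA/1J, the top members for sex, the 3 most abundant per family, members known from other cell types, those removed by the filter and, chosen after their values were seen, Kcnq1, Kcnh8 and Kcnk10. Apart from Kcnq1 and Kcnh8, members named from the tests of strain and sex had a mean of at least 1 CPM.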

Additional observations from a re-analysis of the deposited data

Results flagged for a closer look

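In 198 groups of 6 libraries (33 named genes in 6 strains), 8 held a library that stood apart from the rest of its strain by Dixon's gap test, where chance gives about 1 in 20 groups. In PWD/Ph, female replicate 1 had 4.7 CPM of Kcna5 (next highest 2.1) and 55.8 CPM of Kcnk2 (next 46.3), and female replicate 3 had 1.55 CPM of Kcnu1 (next 0.768) and a low 24.8 CPM of Kcnt2 (next lowest 33.2). PWD/Ph female replicate 1 also had the highest striatal marker sum of all libraries, 209.2 CPM. In DBA/1J, male replicate 3 had a low 0.625 CPM of Kcne4 (next lowest 0.814) and female replicate 3 had 34.5 CPM of Kcns2 (next 30.1). In C57BL/6J, male replicate 2 had 2.49 CPM of Kcnj14 (next 2.07). In DBA/2J, male replicate 1 had a low 47.0 CPM of Kcnv1 (next lowest 62.1), and without that library the averaged sex difference of Kcnv1 had an edgeR adjusted p of 0.0860.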

How the results depend on the processing

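From females alone the members called numbered 35 in 129S1/SvImJ (51.4% of all genes), 11 in A/J (25.9%), 15 in C57BL/6J (23.3%) and 39 in PWD/Ph (53.7%), and from males alone 9 in A/J (15.9%), 12 in C57BL/6J (15.9%), 20 in DBA/1J (30.9%), 21 in DBA/2J (26.8%) and 24 for DBA/2J minus DBA/1J (32.0%); these fits hold fewer libraries. Without PWD/Ph, C57BL/6J had 41 (45.9%). GC correction gave 26 for DBA/2J minus DBA/1J (36.9%), 3 for sex in A/J (8.96%) and 1 for the interaction (2.88%). For sex averaged over strains, DESeq2's size factors and leaving out the 3 shallow DBA/2J libraries gave 0 (0.193% and 0.117%). For sex within strains, limma on log2(FPKM + 1) gave 2 in A/J (4.38%), each strain's own libraries 4 in A/J (11.2%), 4 in C57BL/6J (3.13%) and 2 in DBA/2J (1.11%), and no filter or DESeq2's test 1 in PWD/Ph (0.343% and 1.59%), where the interaction had 2 and 4 (3.56% and 7.14%). The cause was not tested. Leaving out 1 library gave 75 to 78 members for any strain difference, 47 to 56 in 129S1/SvImJ, 15 to 23 in A/J, 22 to 30 in C57BL/6J, 32 to 41 in DBA/1J, 27 to 36 in DBA/2J, 54 to 63 in PWD/Ph, 37 to 47 for DBA/2J minus DBA/1J, 0 to 1 for averaged sex, 0 to 5 for sex in 129S1/SvImJ (5 without female replicate 1), 0 to 1 in A/J (1 without 129S1/SvImJ male replicate 2, A/J male replicate 2 or DBA/2J male replicate 3), 0 in C57BL/6J, DBA/1J and DBA/2J, 0 to 17 in PWD/Ph (17 without female replicate 2, 5 without male replicate 2) and 0 to 6 for the interaction (6 without PWD/Ph female replicate 2, 3 without 129S1/SvImJ female replicate 1, 2 without PWD/Ph male replicate 2, 1 without C57BL/6J male replicate 3). The ranges for the strain comparisons are given without the share of all genes, so that they show no trait of the members. For sex in PWD/Ph, 1524 of 20025 genes were called without female replicate 2 and 1709 of 20020 without male replicate 2. With all libraries it was 24 of 19702. For sex in 129S1/SvImJ it was 368 of 19993 without female replicate 1, against 20 of 19702. For the interaction, 1108 of 20025 were called without PWD/Ph female replicate 2 and 1330 of 20020 without PWD/Ph male replicate 2, against 323 of 19702. Kcnab1 in DBA/2J minus DBA/1J turned sign on FPKM, at -0.00568 and -0.00553 with pseudocounts of 0.1 and 1. Replicate numbers did not pair the libraries (18 same-numbered pairs of a female and a male, r from -0.344 to 0.362, 5 best with their own number), and with the replicate number as a block the counts were 76, 55, 19, 26, 40, 33, 61 and 46 for the strain comparisons in the order above and 1 for averaged sex, with 0 in each strain and for the interaction. Members near 1 CPM, such as Kcne4 and Kcnu1, rest on few reads in the 3 shallow DBA/2J libraries.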
